A study of Mus musculus with 10 samples.

Results

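Glutamine, glutamate, aspartate, alanine, proline and asparagine are joined by a small group of enzymes that pass nitrogen and carbon between them, and 8 of these enzymes were followed in mouse 4T1 cells at 2 densities of collagen. The genes asked for were Glul, Glud1, Got1, Got2, Gpt2, Pycr1, Aldh18a1 and Asns. A gene was taken where a row of the array was annotated with that single symbol, by its brightest row over all 10 arrays. This gave 5 of the 8 genes, out of 30142 symbols with such a row: Got1, Got2, Gpt2, Aldh18a1 and Asns, each with 1 row. The rows that carry Glul and Glud1 name several symbols, and Pycr1 has no row in the annotation used, so these 3 genes were not analysed here. The rule that picks a row uses no difference between the groups, though the genes themselves were listed with earlier results of these data known.

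4T1 is an established mouse mammary carcinoma line that forms metastatic tumours in mice. In every sample 50000 cells were grown for 5 days in a collagen gel, in RPMI that held 10% serum (FBS) and was renewed on day 3, under 5% CO2 at 37 °C. The LD group (5 samples) had gels of 2 mg of collagen per mL and the HD group (5 samples) gels of 3.5 mg per mL, and the labels name no other difference, genotype or agent. Total RNA was hybridised to Affymetrix MTA 1.0 arrays, 1 array for each sample, and all signals below are RMA values on the log2 scale. The labels do not say whether the samples of a group were separate cultures, so the p-values rest on a spread between samples that may be technical. In such bulk RNA, a change in the mix of cell states and a change within each cell cannot be told apart.

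Glutamine is made from glutamate by glutamine synthetase (Glul), and glutamate gives up its nitrogen through glutamate dehydrogenase (Glud1) or through aminotransferases. Got1 and Got2 are the cytosolic and mitochondrial aspartate aminotransferases, and Gpt2 is the mitochondrial alanine aminotransferase. Aldh18a1, pyrroline-5-carboxylate synthase, starts the synthesis of proline from glutamate, and Pycr1 finishes it. Asns takes the amide nitrogen of glutamine to turn aspartate into asparagine. Proline is a main residue of collagen, and Asns is a textbook target of the transcription factor ATF4, which is translated when amino acids run short and binds C/EBP-ATF response elements.

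The stretches before the gene starts of Asns, Got1 and Aldh18a1 are shown because they hold the letters of 1 of the 2 motifs searched. The motifs were TGATGNAA, the core letters of the C/EBP-ATF response element, and CACGTG, the E-box bound by MYC and related factors. Both strands of the 250 bases before each start in the RefSeq promoter table were searched, and all 8 genes had an entry there. Sequences run 5′ to 3′ along the gene's strand, and capitals mark the match.
Asns, GRCm38.p6 chr6:7693210-7693459, minus strand: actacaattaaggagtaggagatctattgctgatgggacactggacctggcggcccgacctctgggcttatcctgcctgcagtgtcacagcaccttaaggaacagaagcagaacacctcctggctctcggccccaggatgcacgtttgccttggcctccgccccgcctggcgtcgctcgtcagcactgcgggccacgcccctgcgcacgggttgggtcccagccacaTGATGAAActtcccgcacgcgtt
Got1, GRCm38.p6 chr19:43524606-43524855, minus strand: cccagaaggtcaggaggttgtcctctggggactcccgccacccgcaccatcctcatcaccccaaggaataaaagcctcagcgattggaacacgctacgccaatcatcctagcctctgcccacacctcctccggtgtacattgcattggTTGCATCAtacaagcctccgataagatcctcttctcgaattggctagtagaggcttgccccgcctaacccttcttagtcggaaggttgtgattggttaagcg
Aldh18a1, GRCm38.p6 chr19:40588464-40588713, minus strand: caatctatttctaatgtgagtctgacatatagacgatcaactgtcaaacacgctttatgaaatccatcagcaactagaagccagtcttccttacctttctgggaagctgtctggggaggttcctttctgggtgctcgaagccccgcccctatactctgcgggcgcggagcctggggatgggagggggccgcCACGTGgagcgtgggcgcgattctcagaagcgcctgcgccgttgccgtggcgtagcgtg
The match in Asns (TGATGAAA) lies 23 to 16 bases before the start, on the gene's strand. The match in Got1 lies 102 to 95 bases before the start and reads TGATGCAA on the other strand. The window of Pycr1, which has no signal here, also holds TGATGCAA, 103 to 96 bases before the start. Thus 3 of the 8 genes hold TGATGNAA, against 3.45% of all 32851 windows of the same length. Aldh18a1 holds CACGTG 59 to 54 bases before its start, as do 6.02% of all windows, and no other gene of the 8 holds it. The 2 motifs do not overlap in these windows. These are matches of letters and no measurement of binding, and the windows of Got2 and Gpt2 hold neither set of letters.

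All 5 measured enzymes rose in HD, by 1.17-fold to 1.5-fold, and in none of them did the HD arrays overlap the LD arrays. Asns rose most, and Got1 least. Across all 17800 genes tested, limma with Benjamini-Hochberg adjustment at 0.05 called 50.9% of genes, 31.4% as higher and 19.5% as lower, and the groups did not overlap for 36.7% of all genes, made up of 21.6% that lay above LD and 15.1% that lay below. A call was therefore common in this comparison, and the size of a change places a gene better than the call. The median log2 change was 0.33 over the 5 enzymes and 0.06 over all genes tested. In the deposited values 61.7% of all calls were higher in HD, against 72.1% once the arrays were quantile normalized or scaled on their control rows.

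**Figure D1:**
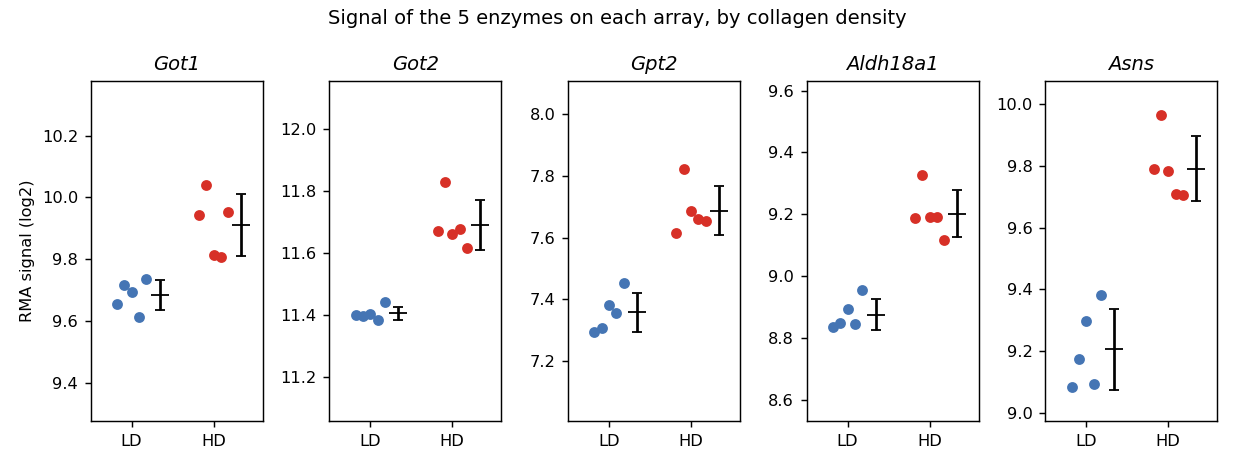
RMA signal (log2, vertical axis) of Got1, Got2, Gpt2, Aldh18a1 and Asns on each array, with LD in blue and HD in red and replicates 1 to 5 from left to right; black marks are the mean and SD of 5 arrays, and every panel spans the same log2 range. In each panel all 5 HD points lie above all 5 LD points, and the gap is widest for Asns.

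Asns, asparagine synthetase, had signals of 9.08, 9.17, 9.30, 9.09 and 9.38 in LD replicates 1 to 5 and of 9.79, 9.96, 9.78, 9.71 and 9.71 in HD replicates 1 to 5. The highest LD array, replicate 5, stayed below the lowest HD array. The mean went from 9.21 ± 0.13 (SD, n = 5) to 9.79 ± 0.11, a log2 change of 0.58 ± 0.064 SE (limma adjusted p = 6.1e-06), with a 95% confidence interval of 0.45 to 0.72. This is a 1.5-fold rise in RMA signal, and 99.2% of the tested genes had a lower or equal log2 change. Asns also varied most within LD, where its SD of 0.13 compares with 0.022 to 0.064 for the other 4 enzymes.

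Got1 and Got2 interconvert aspartate and glutamate on either side of the inner mitochondrial membrane, and Got2 is also the form that supplies aspartate from mitochondria. Got1 had signals of 9.65, 9.72, 9.69, 9.61 and 9.74 in LD and of 9.94, 10.04, 9.81, 9.81 and 9.95 in HD. HD replicates 3 and 4 lay closest to LD, without overlap. Its log2 change was 0.23 ± 0.048 SE (limma adjusted p = 0.0014), a 1.17-fold rise. Got2 had signals of 11.40, 11.40, 11.40, 11.38 and 11.44 in LD and of 11.67, 11.83, 11.66, 11.68 and 11.62 in HD. The LD arrays lay close together (SD 0.022) and the HD arrays wider (SD 0.081), with replicate 2 on top. Its log2 change was 0.29 ± 0.041 SE (limma adjusted p = 5.7e-05), a 1.22-fold rise. Got2 is the brightest of the 5 rows, and its call was lost under 1 other scaling. With the arrays scaled on their negative and positive control rows, its log2 change was 0.026 (limma adjusted p = 0.61). This scaling sets a straight line for each array, which lifts dim rows and lowers bright rows in HD against LD, whatever the gene. Got2 lies above the medians of the positive control rows (9.21 in LD and 9.28 in HD), so the line is extended to reach it. The change of Got1 was 0.12 under that scaling (limma adjusted p = 0.029).

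Gpt2, which makes alanine and 2-oxoglutarate from pyruvate and glutamate, had signals of 7.29, 7.31, 7.38, 7.35 and 7.45 in LD and of 7.62, 7.82, 7.69, 7.66 and 7.65 in HD. The groups were apart, and HD replicate 2 stood above the other HD arrays. The log2 change was 0.33 ± 0.045 SE (limma adjusted p = 4.4e-05), a 1.26-fold rise. Aldh18a1, the entry to proline synthesis, had signals of 8.83, 8.85, 8.89, 8.85 and 8.96 in LD and of 9.19, 9.33, 9.19, 9.19 and 9.12 in HD. HD replicates 1, 3 and 4 were nearly level, with replicate 2 above and replicate 5 below them. Its log2 change was 0.33 ± 0.043 SE (limma adjusted p = 2.8e-05), a 1.25-fold rise. Of all genes tested, 92.9% had a log2 change no higher than that of Gpt2, and the share was the same for Aldh18a1. For Got2 it was 90.6% and for Got1 86.2%.

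**Figure D2:**
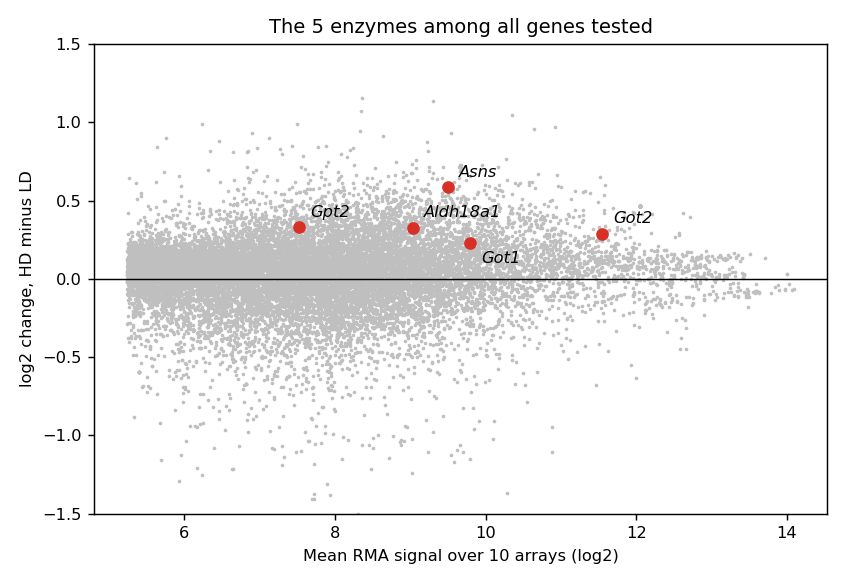
Log2 change (HD minus LD, vertical axis) against mean RMA signal over the 10 arrays (log2, horizontal axis) for the genes tested (grey) and the 5 enzymes (red, labelled); genes that changed by more than 1.5 on the log2 scale are not drawn. All 5 enzymes lie above 0, and Asns lies near the upper edge of the cloud at its signal.

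The changes were then compared with each other within arrays. For each pair of enzymes, the log2 difference on each array was compared between HD and LD by a two-sided exact permutation test over all splits of the arrays into 5 and 5, adjusted over the 10 pairs. Asns rose more than each of the other 4 enzymes. Its excess was 0.36 over Got1, 0.30 over Got2, 0.26 over Gpt2 and 0.26 over Aldh18a1. Each of these 4 pairs reached the smallest p that the design allows (exact p = 0.0079, adjusted p = 0.020), and in each the HD arrays did not overlap the LD arrays. Scaling on the control rows brought the excess over Gpt2 down to 0.089 (exact permutation test, adjusted p = 0.14), while that over Got2 became 0.47 (adjusted p = 0.013), and quantile normalization put the excess over Gpt2 at 0.15 (adjusted p = 0.026). The control-row shifts follow the signals of the genes, since that scaling lifts dim rows and lowers bright rows in HD.

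The other 6 pairs did not pass. Got2 rose by 0.06 more than Got1 (exact permutation p = 0.18, adjusted p = 0.21), so unequal change of the mitochondrial and cytosolic forms was not detected. Aldh18a1 and Gpt2 differed in their change by -0.0018 (exact permutation p = 0.90). Aldh18a1 rose by 0.039 more than Got2 (exact permutation p = 0.048, adjusted p = 0.095). The pair of Got2 and Got1 was among 5 pairs planned from the gene list, of which 1 had rows for both genes, and the other 9 pairs were added after the tables were seen.

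The 5 enzymes were highest on the same arrays. LD replicate 5 was the highest LD array for all 5 enzymes, and HD replicate 2 the highest HD array for all 5. Over all genes tested, these arrays were the highest of their group for 21.0% and 30.8% of genes, and over the genes called higher for 39.0% and 37.3%. On average the 5 enzymes lay 0.14 above their group mean in HD replicate 2 and 0.088 above it in LD replicate 5. Without HD replicate 2 the log2 changes were 0.20 for Got1, 0.25 for Got2, 0.30 for Gpt2, 0.30 for Aldh18a1 and 0.54 for Asns, and all 5 were still called (limma, largest adjusted p = 0.0031).

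By the root mean square distance between profiles over the 10 arrays, each taken from its own LD mean, the 3 genes most like Asns were Atp5l2 (distance 0.044), the predicted gene Gm13015 (0.045) and Abcf2 (0.047). Their log2 changes were 0.56, 0.59 and 0.55. These 3 were picked as the closest of all genes tested, so this closeness describes these arrays only.

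The wider pathway was read from a list of 53 further genes, of which 40 were tested, 7 lay below the signal floor of log2 5.24, 3 had rows that name several symbols and 3 had no row in the annotation used. By limma 24 rose and 5 fell, where 31.4% and 19.5% of all genes did, and the median log2 change was 0.16. As with the 5 enzymes, the list was drawn up with earlier results of these data known.

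Among the 6 tested enzymes that spend the amide nitrogen of glutamine on nucleotides and hexosamines, 4 rose and 2 fell. Ppat, the first enzyme of purine synthesis, went from 8.37 ± 0.106 (SD, n = 5) to 9.03 ± 0.0828, a log2 change of 0.66 ± 0.054 SE (limma adjusted p = 5.8e-07). Ctps, CTP synthase, rose by 0.64 ± 0.048 SE (limma adjusted p = 2.2e-07), while its paralog Ctps2 fell by 0.26 (limma adjusted p = 6.3e-05). Cad, which starts pyrimidine synthesis, rose by 0.53. Gfpt1, the first enzyme of the hexosamine pathway, fell by 0.22 (limma adjusted p = 9.4e-04). Cad, and below Mdh1, Mdh2, Slc25a11, Slc25a12, Slc25a13 and Myc, were named after their values were seen.

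Of the 5 further proline genes tested, 4 rose and none fell. Pycrl (also called Pycr3), a cytosolic pyrroline-5-carboxylate reductase, rose by 0.34 ± 0.044 SE (limma adjusted p = 2.7e-05), close in size to Aldh18a1, though the difference between them was not tested. Oat, ornithine aminotransferase, which reaches the same intermediate from ornithine, rose by 0.18 ± 0.050 SE (limma adjusted p = 0.0076). Prodh2, the hydroxyproline dehydrogenase, differed by 0.06 (limma adjusted p = 0.31), and passed as higher after quantile normalization (0.15) and control-row scaling (0.24). The latter lifts any row this dim in HD against LD.

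Among the other aminotransferases 1 of 4 rose. This was Psat1, of serine synthesis, which uses glutamate as its amino donor and changed by 0.51 ± 0.057 SE (limma adjusted p = 7.0e-06). Gpt, the cytosolic counterpart of Gpt2, and the branched-chain aminotransferases Bcat1 and Bcat2 differed by 0.08, 0.10 and 0.04 and did not pass (limma adjusted p = 0.11, 0.087 and 0.33). All 3 passed as higher after quantile normalization (0.15, 0.14 and 0.12) and after control-row scaling (0.28, 0.34 and 0.13). Control-row scaling lifts any row of such low signal in HD against LD, so passing under it is no separate support for a rise. In LD the mean of Bcat1 (5.55) lay below the negative control median (5.67), and the mean of Gpt (6.04) lay not far above it, so the size of their differences is limited by background. Gpt and Bcat1 also passed without 1 array each, LD replicate 4 for Gpt (limma adjusted p = 0.045) and HD replicate 1 for Bcat1 (0.0496).

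Of the 3 further genes tested around asparagine and aspartate, 2 rose and 1 fell, by little in the deposited values. The asparaginases Aspg and Asrgl1 rose by 0.18 and 0.15 (limma adjusted p = 0.018 and 0.0038), and by 0.36 and 0.31 under control-row scaling, which lifts any row this dim in HD. Asl, argininosuccinate lyase, fell by 0.14 (limma adjusted p = 0.0077).

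All 4 tested partners of glutamate metabolism rose. Gclc, which joins glutamate to cysteine for glutathione, rose by 0.52 ± 0.043 SE (limma adjusted p = 6.2e-07). Ogdh, the 2-oxoglutarate dehydrogenase of the TCA cycle, rose by 0.30 ± 0.039 SE (limma adjusted p = 2.7e-05). The malate dehydrogenases Mdh1 and Mdh2, which work with Got1 and Got2 in the malate-aspartate shuttle, rose by 0.28 and 0.24 (limma adjusted p = 5.0e-05 and 3.7e-04). Like its partner Got2, the bright Mdh2 lost its call when the arrays were scaled on control rows (-0.0063, limma adjusted p = 0.90), while Mdh1 kept it at 0.17. As described for Got2, that scaling lowers any row this bright in HD against LD. The aspartate-glutamate carrier Slc25a12 of the same shuttle rose by 0.33. Its paralog Slc25a13 (0.014) and the 2-oxoglutarate carrier Slc25a11 (-0.087), also of the shuttle, were not called (limma adjusted p = 0.79 and 0.10).

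Of 10 transporters tested, 6 rose and none fell. Slc7a11, which exports glutamate in exchange for cystine, went from 5.95 ± 0.119 (SD, n = 5) to 6.44 ± 0.0367, a log2 change of 0.49 ± 0.052 SE (limma adjusted p = 4.7e-06). Negative control rows had a median of 5.67 in LD, close below its LD signal, so its fold is limited. Slc1a5, the glutamine carrier ASCT2, rose by 0.46 ± 0.048 SE (limma adjusted p = 3.9e-06).

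Of 8 genes tested as amino acid stress regulators, 3 were higher and 2 lower, counts close to the background shares of 31.4% and 19.5%. The 3 higher were Atf4, Chac1 and Myc, and Myc rose by 0.20 (limma adjusted p = 2.2e-04). Atf4 rose by 0.28 ± 0.040 SE (limma adjusted p = 5.9e-05), and Chac1, a glutathione-degrading ATF4 target, by 0.40 ± 0.069 SE (limma adjusted p = 2.6e-04). Ddit3 (CHOP), another target of ATF4, fell by 0.53 ± 0.061 SE (limma adjusted p = 9.3e-06), and by 0.47 when its 2 rows were averaged. Eif2ak4, the kinase GCN2 that senses uncharged tRNA, fell by 0.15 (limma adjusted p = 0.0028), and by 0.088 after quantile normalization and 0.092 after control-row scaling. Trib3 and Atf5 differed by -0.07 and -0.0045, and Sesn2 by 0.10, and none of the 3 passed (limma adjusted p = 0.17, 0.95 and 0.13). Sesn2 passed as higher after quantile normalization (0.19) and control-row scaling (0.23), with array weights (0.12) and without HD replicate 1 (0.15). Control-row scaling lifts rows of its signal in HD against LD. ATF4 protein and its binding were not measured here.

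**Figure D3:**
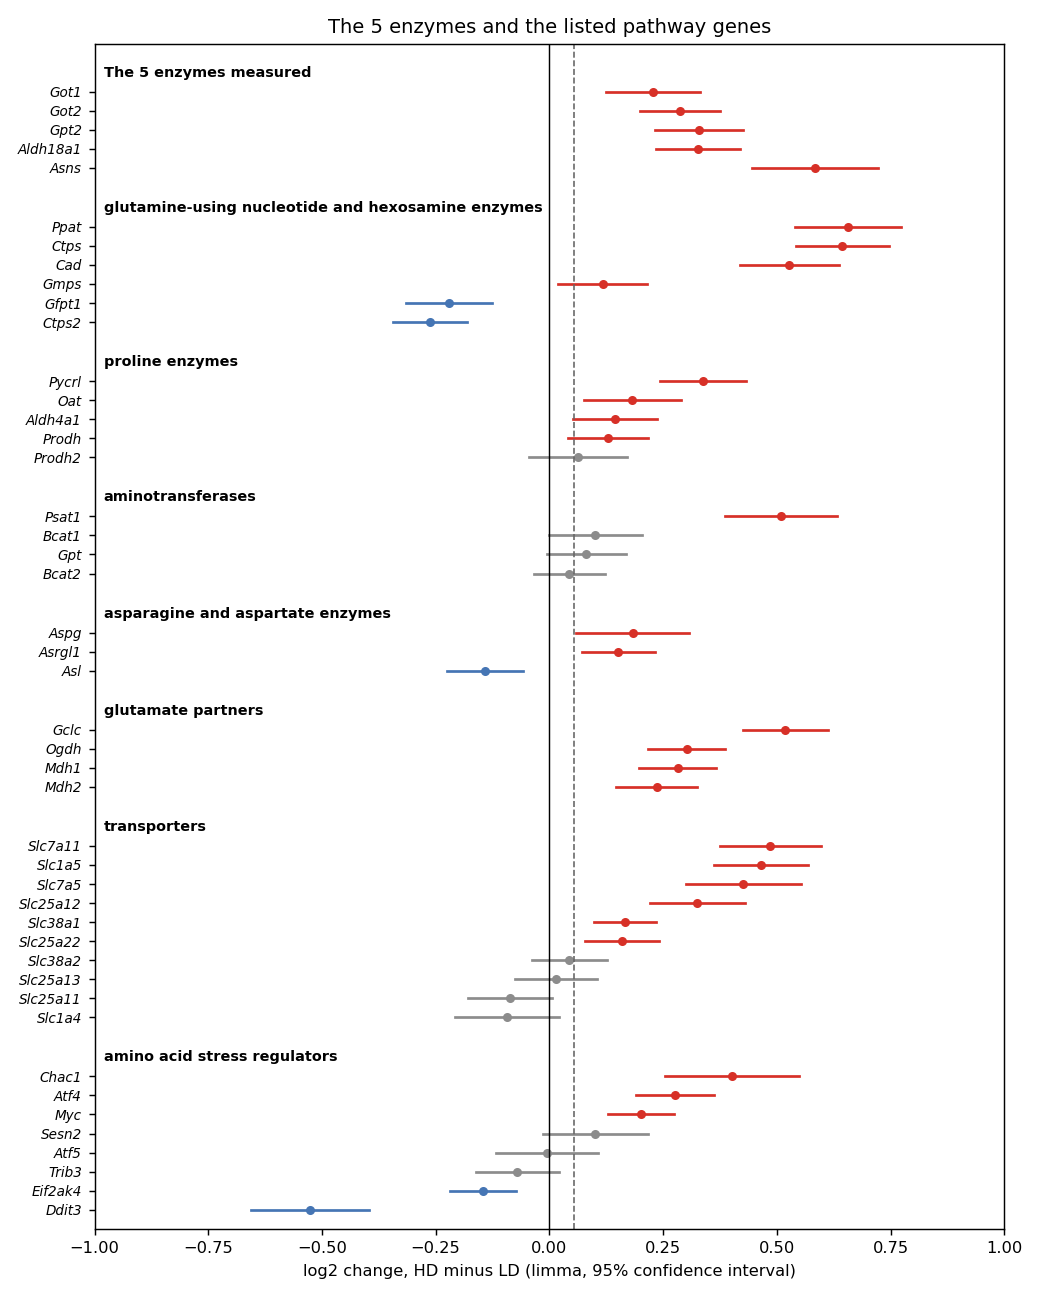
Log2 change, HD minus LD (horizontal axis), with the 95% confidence interval from limma for the 5 enzymes and the 40 tested genes of the pathway list, grouped by role; red is called higher, blue lower and grey neither, and the dashed line is the median of all genes tested (0.06). All 5 enzymes lie right of the dashed line, and so do Ppat, Ctps, Cad, Gclc and Psat1 at 0.51 to 0.66, while Ddit3 lies at -0.53.

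Control features of the arrays also differed between the groups. Negative control rows had medians of 5.67 ± 0.0516 (SD, n = 5) on LD arrays and 5.42 ± 0.124 on HD arrays, while positive control rows had medians of 9.21 ± 0.0111 and 9.28 ± 0.0448. Background rows moved opposite to the negative control rows, with medians of 3.47 ± 0.0551 and 3.63 ± 0.0573, and are not used by the scaling. With the medians of the negative and positive rows set equal on all arrays, the control-row scaling above, 4 of the 5 enzymes were called. Under that scaling 49.4% of all genes tested were called higher. The median log2 change was then 0.13 over all genes and 0.28 over the 5 enzymes. Arrays correlated at 0.9961 to 0.9983 within a group and at 0.9835 to 0.9932 between groups, across genes, which are not independent replicates. All 6 epithelial markers lay above the floor, and their mean signal was 10.9955 to 11.0638 on LD arrays and 10.719 to 10.8416 on HD arrays, lower on every HD array. Krt19 (9.72 and 8.96) and Epcam (10.79 and 10.19) fell most, Krt18 and Cdh1 were also called lower, and Krt8 (12.01 and 12.04) and Krt7 (10.81 and 10.76) were not called. Of 16 markers of fibroblasts, leukocytes and endothelium with a row, 7 lay above the floor, and Ptprc (3.09 and 3.14), Pecam1 (4.42 and 4.49) and Lum (3.40 and 3.43) were among those below it in both groups. Of those above it, Cd68, a lysosomal protein abundant in macrophages, fell from 8.57 ± 0.093 (SD, n = 5) to 7.83 ± 0.18, Col3a1 (5.65 and 5.80) and Cd3e (5.29 and 5.45) were called higher, and the other 4 were not called. Among these 4 was Col1a1 (6.71 and 6.80), the brightest of the fibroblast list. In LD the means of Col3a1 and Cd3e lay below the negative control median (5.67), so the size of their differences is limited by background. The mean signal of the fibroblast list was 5.00 to 5.14 on LD and 5.06 to 5.29 on HD arrays, that of the leukocyte list 5.14 to 5.20 and 5.08 to 5.16, and that of the endothelial list 4.48 to 4.63 and 4.58 to 4.67. The part of these markers in the result was not tested.

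**Figure D4:**
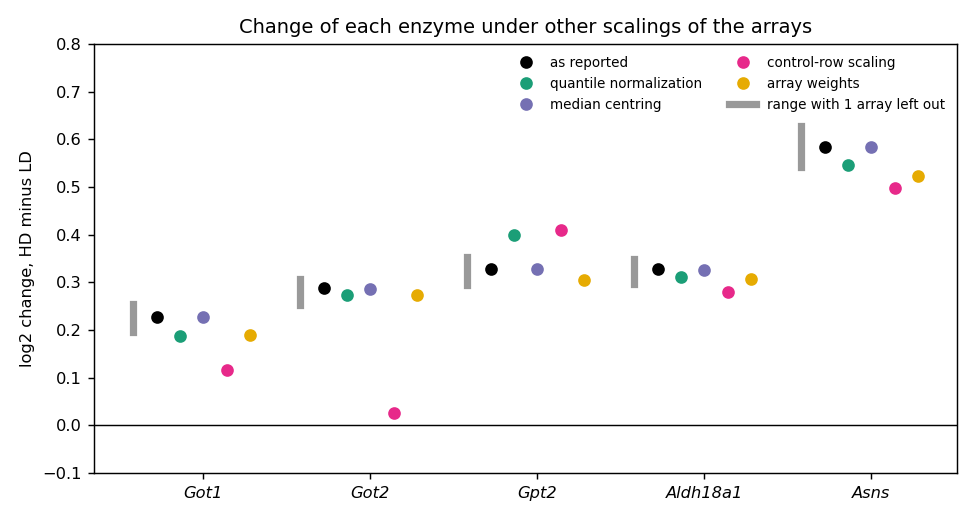
Log2 change, HD minus LD (vertical axis), of each enzyme as reported (black), under 3 other scalings of the arrays and with array weights (colours), with a grey bar for the range over the 10 settings that each leave out 1 array. The points of each enzyme lie above 0 in every setting drawn, and the control-row scaling takes Got2 to 0.026 while it raises Gpt2 to 0.41.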

How the data were processed

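The deposited log2 values were made by the authors with RMA, per the submitters' processing notes; software, annotation and build: not given in the sources used here. RMA equalises arrays and compresses folds, but quantile normalization of the deposited values still raised the genes called higher from 5589 to 7634. The log2 scale was read from the values (1.49 to 14.3). Of 72688 rows, 30604 named 1 symbol in the platform annotation and 2146 several; RefSeq (GRCm38.p6) supplied updated names and the promoters. The row identifiers of all 5 enzymes carry the gene's chromosome in RefSeq.

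A gene was its brightest row, tested above the median row mean (log2 5.24; 17800 genes) with limma 3.58.1 (R 4.3.3), two-sided, Benjamini-Hochberg adjusted over all of them. The fit was tested on simulated data. Named genes were the 5 enzymes and, in each role, up to 2 called genes per direction with the largest change and those not called where a role had at most 3. Members and lists were chosen with earlier results of these data known. Alternatives were a replicate block, quantile normalization, median centring, control-row scaling, no or a stricter filter, row averaging, trended and robust variance, array weights and leaving out each array. Deviations of same-numbered arrays correlated at -0.091 to 0.216, so numbers were not treated as pairs. No arrays held identical values.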

Additional observations from a re-analysis of the deposited data

How the results depend on the processing

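Asns, Gpt2, Aldh18a1 and Got1 kept their direction and call in all 19 alternative settings, and Got2 in 18 of 19. Not all settings could move them: row averaging leaves their signals as they are, since each has 1 row, and the filters change only their p-values. Scaling on control rows raised the genes called higher from 5589 to 8785, or 49.4% of all genes tested, and left 4 of the 5 enzymes called. This scaling turned Mdh2 (-0.0063) and the excess of Got2 over Got1 (-0.089, exact permutation test, adjusted p = 0.12). It also turned Atf5 (0.069) and Trib3 (0.039), neither of which passed in any setting. These turns follow from the straight line of the scaling, which shifts each row by its signal. Quantile normalization turned Atf5 and Trib3 too (0.058 and 0.012), and why was not tested. Atf5 lay between -0.048 and 0.026 when 1 array was left out. With the replicate number as a block, 5654 genes were called higher and 3404 lower, all 5 enzymes were called and 23 pathway genes were higher, against 24 without it. The block ended no call of the genes followed over the settings, which do not include Myc or the cell type markers. Over all settings 19 to 28 pathway genes were higher and 5 to 7 lower. The 19 came with the stricter filter, which tested fewer genes (10907 in all). Of these brighter genes 38.5% were called higher, a larger share than the 31.4% over all genes tested, and all 5 enzymes were called. The 28 came with quantile normalization, where 42.9% of all genes were called higher. Signal over background limits Bcat1, Slc7a11, Gpt, Col3a1 and Cd3e in LD. With 10 arrays, scan batches were not analysed here.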
